A study of Mus musculus with 9 samples.

Results

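The promoters described here are those of non-coding genes: long non-coding RNA (lncRNA) genes, small nucleolar RNA (snoRNA) genes, microRNA (miRNA) genes, pseudogenes and a few other non-coding genes. They were taken from the authors' deposited table of promoter windows. A window counted as a member where a non-coding or pseudogene RefSeq gene had its 5' end within 1 kb of the window's start position on the window's strand, and no protein-coding gene did. This rule gave 400 of 10271 windows (3.89%): 292 of lncRNA genes, 50 of pseudogenes, 39 of snoRNA genes, 13 of miRNA genes and 6 of other types (2 snRNA, 2 tRNA and 2 miscellaneous RNA genes). A further 8557 windows had a protein-coding 5' end, among them 186 that had a non-coding 5' end as well and were left out. In 301 of the 400 members the non-coding 5' end fell exactly on the start position. In 47 members several non-coding 5' ends lay within 1 kb, and the nearest gave the type. RefSeq strands were at hand for the genes of 259 members; for the other 141 the boundary that matched the window's orientation was taken as the 5' end.

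Accessibility was measured by ATAC-seq, which inserts adapters into open chromatin with a transposase, in HPC7, a mouse hematopoietic progenitor cell line kept in culture with stem cell factor. All cells carried a MIG retroviral vector. It was empty in the control group (MIG-EV, here EV), coded for FLAG-tagged wildtype Snai1 in the second group (MIG-Snai1, here Snai1) and for a mutant in the third (MIG-mut5Snai1), with 3 libraries in each group. The deposited table compared EV with Snai1; the mutant group was not analysed here. For every window it gave 1 log2 concentration (log2 normalised read count) per group, the difference of the groups, a p-value and a false discovery rate (FDR). Every group value, change and FDR below comes from the authors' deposited table, unless a re-test is named, and changes are Snai1 minus EV on the log2 scale. Windows on the plus strand are 2001 bp long and those on the minus strand 1101 bp, a difference of 0.86 on the log2 scale, so levels are also given per kb where windows are ranked. No value per library was at hand, so no SD or n is given, and the reads behind each library are unknown. Whether each library stands for its own transduction is not stated in the labels, so the p-values may reflect technical spread alone. Of 10 progenitor genes listed as markers of the line (Kit, Tal1, Runx1 and others), 9 had a window; of 11 markers of T cells, B cells, liver and fibroblasts, 0 had one.

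Snai1 is a zinc finger repressor that binds the E-box, with the letters CACCTG or CAGGTG, and recruits histone deacetylases and the demethylase Lsd1. Non-coding genes use several kinds of promoter. Many lncRNA genes start back to back with a protein-coding gene from a shared CpG-rich promoter, while others have a promoter of their own, often active in few cell types. Most mammalian snoRNAs are cut from introns of host genes, often genes of ribosomal proteins and translation factors, and most miRNAs from longer host transcripts, so the 5' end of the small RNA is usually not where transcription starts. Processed pseudogenes are copies of messenger RNAs pasted into the genome without their promoters, whereas transcribed pseudogenes can keep one.

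To show the kind of sequence behind the largest changes, the RefSeq promoters (GRCm38.p6, the coordinates of mm10) of 6 lncRNA genes are printed 5' to 3' on the gene's strand: the 3 largest called increases and 3 largest called decreases among lncRNA windows with an entry. Each runs from 250 bases before the start to 50 after it. Capitals mark the Snai1 E-box (CACCTG or CAGGTG) and the GATA-type letters AGATAA or TTATCT.
Gm5577 (rose; chr6:87981433-87981732, plus strand): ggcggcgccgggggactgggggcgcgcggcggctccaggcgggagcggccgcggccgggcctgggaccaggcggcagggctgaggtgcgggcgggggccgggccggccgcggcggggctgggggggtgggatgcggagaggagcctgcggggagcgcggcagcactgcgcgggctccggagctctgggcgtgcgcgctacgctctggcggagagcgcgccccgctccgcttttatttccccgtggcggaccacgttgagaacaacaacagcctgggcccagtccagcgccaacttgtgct
Gm14403 (rose; chr2:177497976-177498275, plus strand): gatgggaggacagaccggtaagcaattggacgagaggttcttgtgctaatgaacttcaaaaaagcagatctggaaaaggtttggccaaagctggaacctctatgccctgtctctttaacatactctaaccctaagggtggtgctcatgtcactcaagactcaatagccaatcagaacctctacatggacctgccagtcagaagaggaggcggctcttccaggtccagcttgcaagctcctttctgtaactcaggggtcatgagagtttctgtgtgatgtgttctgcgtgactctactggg
2900079G21Rik (rose; chr9:112234131-112234430, plus strand): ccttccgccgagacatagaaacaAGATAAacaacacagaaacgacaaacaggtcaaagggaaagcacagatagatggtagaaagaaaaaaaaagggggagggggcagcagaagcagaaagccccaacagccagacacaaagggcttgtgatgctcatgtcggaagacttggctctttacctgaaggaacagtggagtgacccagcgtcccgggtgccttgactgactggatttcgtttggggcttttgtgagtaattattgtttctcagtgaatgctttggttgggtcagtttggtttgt
9230112J17Rik (fell; chr9:60545833-60546132, minus strand): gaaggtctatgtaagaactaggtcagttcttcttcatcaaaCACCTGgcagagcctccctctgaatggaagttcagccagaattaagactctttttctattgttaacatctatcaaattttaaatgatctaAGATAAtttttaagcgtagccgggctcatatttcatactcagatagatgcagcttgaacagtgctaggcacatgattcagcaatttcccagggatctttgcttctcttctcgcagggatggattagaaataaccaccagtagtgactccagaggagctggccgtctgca
Dubr (fell; chr16:50732724-50733023, minus strand): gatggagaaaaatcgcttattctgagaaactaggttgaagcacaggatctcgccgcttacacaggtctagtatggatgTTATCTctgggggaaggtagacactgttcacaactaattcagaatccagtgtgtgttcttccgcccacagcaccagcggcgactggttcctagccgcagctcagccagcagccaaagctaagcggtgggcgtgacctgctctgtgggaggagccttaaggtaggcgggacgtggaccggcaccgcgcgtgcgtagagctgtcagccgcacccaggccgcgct
C330018A13Rik (fell; chr5:116123364-116123663, plus strand): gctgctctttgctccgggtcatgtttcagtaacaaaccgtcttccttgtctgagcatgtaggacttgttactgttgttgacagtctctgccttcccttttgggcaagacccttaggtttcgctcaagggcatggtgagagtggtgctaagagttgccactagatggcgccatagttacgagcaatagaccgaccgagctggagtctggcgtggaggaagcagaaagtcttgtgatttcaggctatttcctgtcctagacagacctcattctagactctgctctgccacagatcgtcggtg
Of these 6, only 9230112J17Rik held the E-box letters, once, at position -209 from the start. The GATA-type letters stood once each in 2900079G21Rik, 9230112J17Rik and Dubr. Gm5577 was GC-rich, with 77.7% G or C and 40 CpG dinucleotides in 300 bases, against 4 CpG dinucleotides each in Gm14403 and 9230112J17Rik.

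Promoter sequence was at hand for 231 of the 292 lncRNA members. An E-box (either strand, both spellings counted) lay in 35 of them (15.2%), close to the 16% of all windows with a sequence and below the 20.2% of all RefSeq promoters of that length. The share was 18.8% of those that rose, 10.3% of those that fell and 14.9% of those not called, as a description and without a test. AGATAA or TTATCT lay in 5.63% of the lncRNA members and 5.64% of all windows with a sequence. The lncRNA members fell into different kinds by position. Back to back here means a protein-coding 5' end within 1 kb on the other strand, on either side of the start. Whether the genes point away from each other was not checked, so starts that face each other are included. Those that start back to back with a protein-coding gene were CpG-island-like (more than 50% G or C and an observed over expected CpG ratio above 0.6) in 89.4% of 104 sequences, the others in 47.2% of 127, and protein-coding windows in 76.4%. The letters TATAAA on the gene's strand stood in 0 of the 104 back-to-back promoters and in 10 of the 127 others. The others may include back-to-back starts whose partner had no strand at hand. These windows of letters cover only part of each measured window.

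The 2 groups were compared to find promoters more or less accessible with Snai1, here those of non-coding genes. At FDR under 0.05, which is meant by called below, 120 of the 400 windows changed: 76 rose and 44 fell. That is 30% called, 19% higher and 11% lower, beside a background of 29.9% called, 19.6% higher and 10.3% lower over all 10271 windows, and 29.8% called among protein-coding windows. At the stricter FDR of 0.01, 80 members were called (46 higher, 34 lower), which is 20% beside a background of 19% (11.2% higher, 7.74% lower). As a whole, non-coding promoters were thus called about as often as promoters in general. The median change of the members was 0.07, against 0.08 for all windows. Most changes were small: the median was 0.26 among members that rose and -0.44 among those that fell. A change of at least 0.5 in either direction was listed for 29 members (7.25%) and 6.39% of all windows.

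By type, 93 of 292 lncRNA windows were called (60 higher, 33 lower; 31.8%), 14 of 50 pseudogene windows (7 higher, 7 lower; 28%), 9 of 39 snoRNA windows (6 higher, 3 lower; 23.1%), 1 of 13 miRNA windows (higher; 7.69%) and 3 of the 6 others (2 higher, 1 lower). These shares were not tested against each other, and the types differed in accessibility, on which the precision of a change depends. Over all windows 29.9% were called (19.6% higher, 10.3% lower).

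**Figure D1:**
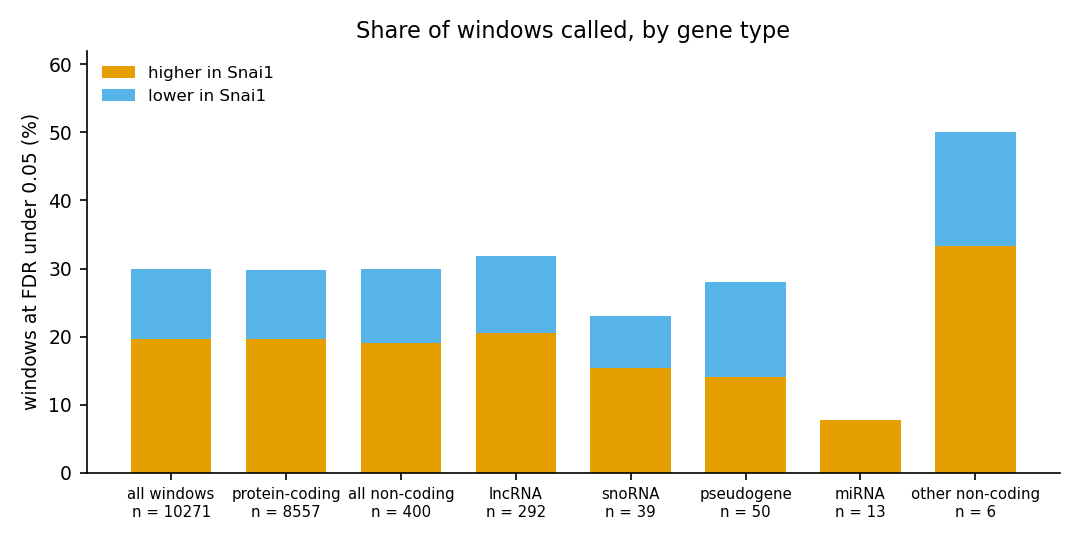
Percent of windows called at FDR under 0.05 in the authors' deposited table (y axis), higher in Snai1 in orange and lower in blue, for all windows, protein-coding windows, all non-coding windows and each non-coding type (x axis, with the number of windows). The bars of all windows, protein-coding windows and all non-coding windows reach 29.9%, 29.8% and 30%; the bar of the 6 other non-coding windows is the highest and rests on 3 calls.

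The lncRNA windows were about as open in EV as windows in general (median log2 concentration 10.78 for both), while the median was 8.84 for miRNA, 8.38 for pseudogene and 7.82 for snoRNA windows. Per kb of window the medians were 10.12 for lncRNA, 8.30 for miRNA, 7.73 for pseudogene, 7.25 for snoRNA and 10.16 for all windows. Pseudogenes were of 2 kinds: the 28 that RefSeq calls transcribed had a median of 10.61 and the other 22 one of 6.82. The lowest decile of all windows by accessibility held 98 members (24.5%), among them 28 of 39 snoRNA windows (71.8%), 26 of 50 pseudogene windows (52%), 6 of 13 miRNA windows (46.2%) and 36 of 292 lncRNA windows (12.3%), against 7.88% of protein-coding windows. The deposited p-value and change together imply a standard error (the implied SE), whose median was 0.188 for the members in that decile and 0.08 for the others. In the lowest decile, 17 of 98 members were called (17.3%), against 253 of 674 protein-coding windows (37.5%), whose median implied SE was 0.168. Outside it, 103 of 302 members were called (34.1%), against 29.1% of protein-coding windows. These differences were not tested.

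**Figure D2:**
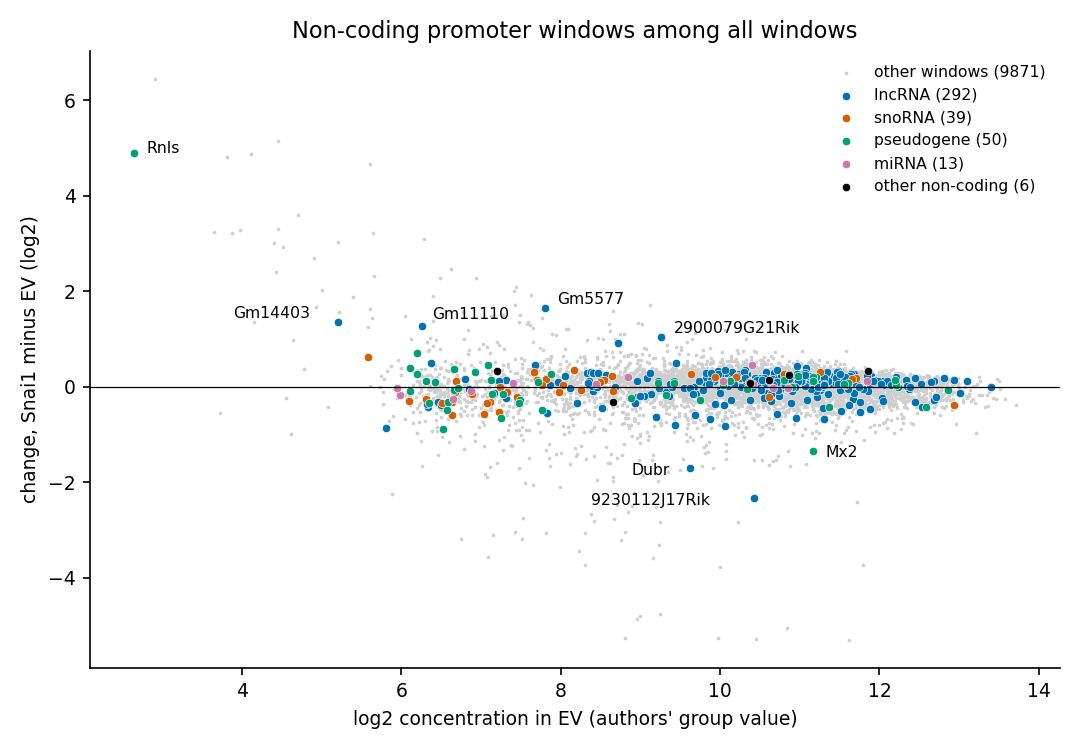
Change from EV to Snai1 (y axis, log2) against the log2 concentration in EV (x axis) for every window of the authors' deposited table, other windows in grey and non-coding windows coloured by type. Most members lie near 0; the labelled ones lie apart, from Rnls at 4.90 to 9230112J17Rik at -2.34, and Rnls has the lowest EV value of all windows (2.65).

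Among lncRNA windows, the largest increases were at genes known mainly by their database names. Gm5577 (window at chromosome 6, 87980683 to 87982683) had a log2 concentration of 7.80 with EV and 9.45 with Snai1 and rose by 1.64, or 3.12-fold (implied SE 0.126, FDR 2.61e-36). Its start lies back to back with that of H1f10, which encodes a linker histone variant, and is treated with that gene below. Gm14403 (chromosome 2, 177497226 to 177499226) went from 5.20, the lowest EV value of any lncRNA window, to 6.56 (1.36, implied SE 0.269, FDR 7.28e-06). Gm11110 (chromosome 17, 57105842 to 57106942) lies within the span of Tnfsf9, the gene of the T cell costimulatory ligand 4-1BBL, and went from 6.26 to 7.54 (1.28, FDR 3.23e-09). These 3 windows lay below the median of all windows in both groups.

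2900079G21Rik (chromosome 9, 112233381 to 112235381) starts inside Arpp21, a gene of a cyclic AMP-regulated phosphoprotein, on the other strand. Its window rose from 9.26 to 10.30, a change of 1.04 with a small error (implied SE 0.0932, FDR 7.17e-27). Rnf227, which RefSeq lists as a lncRNA gene in this build although its name is that of a ring finger protein, rose from 8.72 to 9.64 (0.92, FDR 3.88e-17). The next increases were less than 0.5 in size: 4930412C18Rik (7.68 to 8.14, change 0.46, FDR 0.00872), 2610020C07Rik (10.97 to 11.41, change 0.44, FDR 1.53e-10) and Gm1976 (11.08 to 11.46, change 0.39, FDR 7.71e-07).

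The largest decrease of any member was at 9230112J17Rik (chromosome 9, 60545782 to 60546882), whose window fell from 10.42 to 8.09, a change of -2.34 or 5.06-fold (implied SE 0.13, FDR 7.16e-70). No protein-coding start lay within 1 kb on the window's strand, nor on the other strand among genes with a strand at hand. The nearest protein-coding window, that of Lrrc49, 142252 bp away, changed by -0.19 (FDR 0.105). Dubr, a lncRNA gene described as active in muscle differentiation and named for its place upstream of Dppa2, was at 9.62 in EV and fell by 1.71 to 7.91 (implied SE 0.119, FDR 8.58e-45). Its window lies on chromosome 16, 50732673 to 50733773, where most windows were lower, and the surroundings are given below. C330018A13Rik fell from 10.06 to 9.22 (-0.83, FDR 4.76e-14) and Bvht (Braveheart), a lncRNA gene known for its part in cardiac lineage commitment, from 9.43 to 8.63 (-0.80, FDR 5.52e-09).

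The other decreases among the 8 largest were 1700007L15Rik (11.31 to 10.63, change -0.68, FDR 1.14e-18), E130102H24Rik (9.87 to 9.20, change -0.67, FDR 2.22e-11), 2700046G09Rik (10.95 to 10.29, change -0.66, FDR 4.93e-12) and Lppos (9.19 to 8.55, change -0.64, FDR 6.76e-07). 2700046G09Rik starts back to back with Sgms1, a sphingomyelin synthase gene, and Lppos with Lpp, the gene of a focal adhesion protein of the zyxin family. Next came Gm12522, back to back with Psrc1, at -0.60 and Gm19426 at -0.58. Size alone did not make a call: Gm10825, listed at 5.81 in EV and 4.94 in Snai1, had a change of -0.87 with an implied SE of 0.375 and did not pass (FDR 0.0626).

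**Figure D3:**
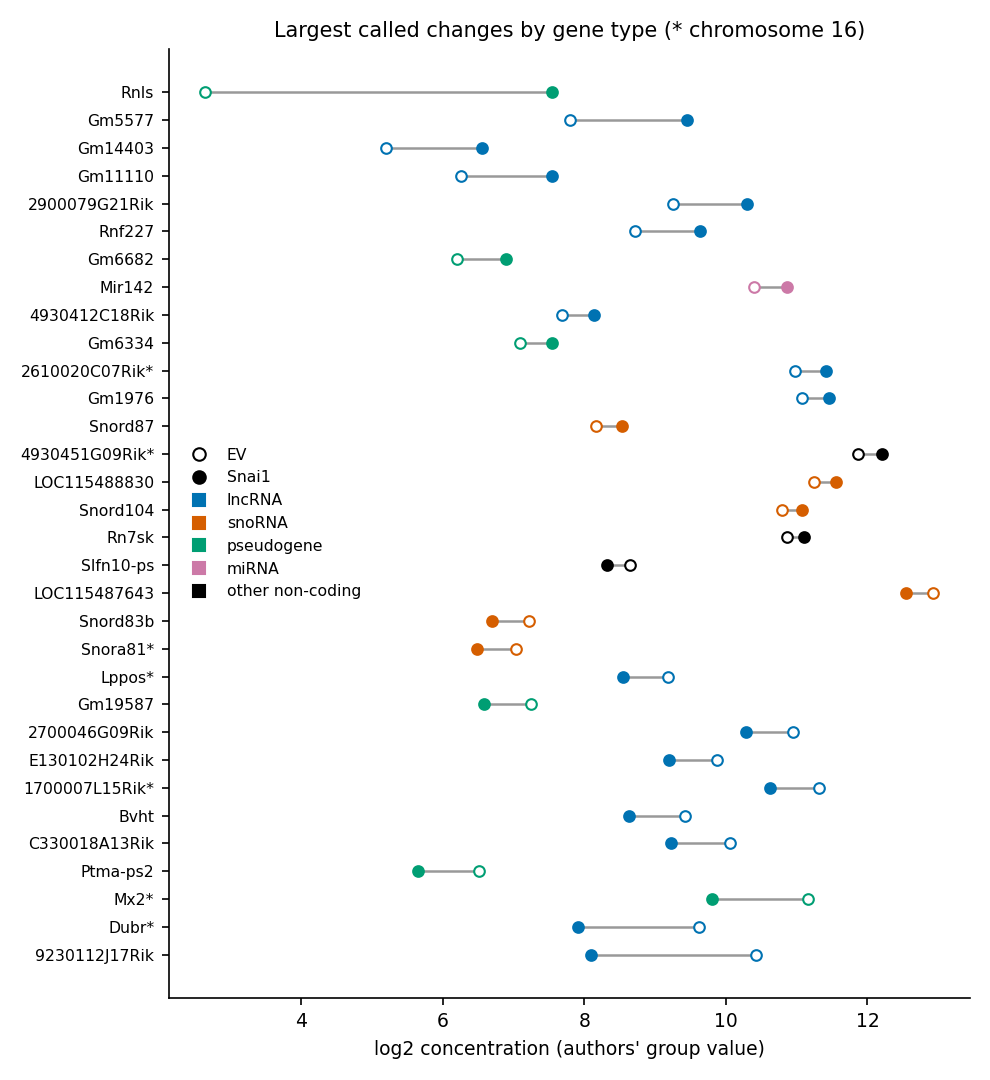
Log2 concentration in EV (open circles) and in Snai1 (filled circles) on the x axis for the largest called increases and decreases of each type (y axis, ordered by change, coloured by type, chromosome 16 marked with an asterisk), from the authors' deposited table. LOC115487643 is the snoRNA 5' end nearest to the window of Gas5. Among the increases, Rnls starts from 2.65, Gm14403 from 5.20 and 2900079G21Rik from 9.26. Among the decreases, 9230112J17Rik, Dubr and Mx2 start from 10.42, 9.62 and 11.16, and Ptma-ps2 from 6.52. The windows were picked by the size of their change, and their starting values were not compared by a test.

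Several listed groups of lncRNA genes were examined. Malat1 and Neat1, which encode abundant nuclear RNAs of speckles and paraspeckles, had open windows that were not called: Malat1 was at 11.26 in EV and 11.28 in Snai1 (FDR 0.899) and Neat1 at 11.46 and 11.54 (FDR 0.474). Of 16 listed lncRNA genes of nuclear structure and chromatin, 7 had a member window, of which 1 rose, 0 fell and 6 were not called, beside 29.9% of all windows called (19.6% higher, 10.3% lower). The one that rose was Jpx, an activator of the X inactivation gene Xist (10.21 to 10.44, change 0.23, FDR 0.0292). Xist itself had no member window. The uncalled ones ranged from -0.07 at Tug1 to 0.18 at Kcnq1ot1, the imprinted antisense transcript in Kcnq1.

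Among 11 listed lncRNA genes of growth control, p53 and blood cells, 7 had a window: 2 rose, 1 fell and 4 were not called, with a median change of 0.07 against 0.08 for all windows and 29.9% of all windows called. Lockd, a transcript next to the cell cycle inhibitor gene Cdkn1b, rose from 11.47 to 11.79 (0.31, FDR 1.68e-04), and the window of Cdkn1b, 8691 bp away, changed by 0.22 (FDR 0.00898). Dleu2, host of the miR-15a and miR-16-1 genes, rose from 10.77 to 11.02 (0.25, FDR 0.00481). Pvt1, the neighbour of Myc, stayed at 9.55 and 9.52 (-0.02, FDR 0.868), while the Myc window changed by 0.37 (FDR 1.4e-06). Trp53cor1 (lincRNA-p21) was at 10.61 and 10.68 (FDR 0.555), while its neighbour Cdkn1a, the p21 gene, changed by -1.04 (FDR 0.00413). So modest an FDR at a change of that size implies a wide error for the Cdkn1a window. Morrbid, which controls survival of short-lived myeloid cells, had a change of 0.50 with a wide error (implied SE 0.289, FDR 0.179), and Norad was at 8.68 and 8.69. A member and the coding gene beside it thus had unlike values at Pvt1 and Trp53cor1, a difference that was not tested.

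Host genes of snoRNAs had windows in 16 of 21 cases: 2 rose, 1 fell and 13 were not called, beside 29.9% of all windows called. Their median change was 0.06, against 0.08 for all windows. Snhg12 rose from 10.31 to 10.67 (0.36, FDR 6.66e-05), and Snhg4 from 10.34 to 10.60 (0.26, FDR 0.00306). Gas5, which accumulates in growth-arrested cells, fell from 12.93 to 12.54 (-0.39, implied SE 0.0985, FDR 7.22e-04). Its start lies back to back with Zbtb37, whose overlapping window changed by -0.43. The 5' end nearest to the start position of that window is that of the snoRNA gene LOC115487643, so it is counted among the snoRNA windows. The 13 uncalled hosts ranged from Snhg10 (-0.22, FDR 0.0686) to Snhg3 (0.21, FDR 0.0697), with Snhg1 at 0.11, Dancr at 0.07 and Zfas1 at 12.15 and 12.18. The 5' end nearest to the start position of the Snhg3 window is that of Snora73a, so that window too is counted among the snoRNA windows. Host genes of miRNAs had windows in 3 of 14 cases, for which the same share of 29.9% applies: Dleu2 rose, and Mir22hg (12.69 to 12.82, FDR 0.231) and Mir17hg (6.80 to 6.96, FDR 0.567) were not called. The nearest protein-coding window to Mir22hg, that of Tlcd2 at 6511 bp, changed by 2.08.

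Transcripts whose symbols mark them as opposite-strand or antisense were taken by the end of the symbol, a rule that also takes in Gas5 by spelling alone. Of 227 such symbols 21 had a window: 1 rose, 3 fell and 17 were not called, beside 19.6% of all windows higher and 10.3% lower. Cep83os rose from 10.87 to 11.14 (0.27, FDR 0.00124), and its back-to-back partner Cep83, a centriole appendage gene, changed by 0.32. Zbtb11os1 fell from 11.52 to 11.01 (-0.51, FDR 1.04e-08) and Lppos as given above, both on chromosome 16. The third was Gas5.

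In all, 129 members lay back to back with a protein-coding gene, 163 lay between genes, 41 inside a protein-coding gene on its strand, 41 inside one on the other strand and 26 inside one whose strand was not at hand. The numbers called were 42 (32.6%), 53 (32.5%), 4 (9.76%), 11 (26.8%) and 10 (38.5%), beside 29.9% of all windows (19.6% higher, 10.3% lower). These shares were not tested against each other. The 41 windows on the strand of a host gene were mostly those of snoRNAs and miRNAs, types with low accessibility, and 30 of them (73.2%) lay in the lowest decile. A back-to-back partner was counted only where its strand was at hand. Some members listed between or inside genes may therefore have a partner that was missed.

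For 112 back-to-back members the partner's own window was in the table. All 112 pairs overlapped, by 136 to 1101 bp (median 1101), so they share reads and are not separate measurements. The non-coding window was called in 38 pairs, beside 29.9% of all windows called. In 33 both windows were called, all in the same direction; in 5 only the non-coding one, in 7 only the partner and in 67 neither. The median absolute difference between the changes of a pair was 0.03 and the largest 0.26. The pair with the smallest FDR was Gm5577 and H1f10: 7.80 to 9.45 at the lncRNA and 7.42 to 9.14 at the histone gene (changes 1.64 and 1.72). 1700007L15Rik and Zfp148, a zinc finger gene, changed by -0.68 and -0.63, 2610020C07Rik and the nucleolar gene Rsl1d1 by 0.44 and 0.42, 9230116N13Rik and the helicase gene Ddx59 by -0.45 and -0.38, and Gm16892 and the omega-amidase gene Nit2 by -0.47 and -0.51.

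Pairs with a short overlap could differ. Windows of starts within 1 kb that point away from each other share most of the shorter window. A short overlap thus means that the starts face each other or that the partner's window lies farther off, which was not checked. R74862 changed by -0.34 (FDR 0.0193) and its partner Cd81, a tetraspanin gene, by -0.08 (FDR 0.417), with 165 bp in common. Gm5914 changed by 0.29 (FDR 0.0303) and Ctcf, the gene of the insulator protein, by 0.05 (FDR 0.673), with 289 bp in common. These 2 pairs had the largest differences of all 112 and were chosen after their values were seen; the differences were not tested.

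The snoRNA windows were mostly of low accessibility and inside protein-coding genes. Here a gene is called the host where its span held the start position, whatever its strand, which was not always at hand. Of 39, 29 lay inside a protein-coding gene, and for 22 of these the promoter window of the host (18 genes) was in the table. In all 22 the snoRNA window was less accessible in EV than the host promoter, with medians of 7.17 and 11.51. The rule for members shaped this comparison, since windows within 1 kb of a protein-coding 5' end on their strand could not enter. Where a host had several windows, the one of smallest p was taken. In each of the 22 the difference, at least 1.40, was larger than the 0.86 that window width could give. Of the 22, 16 did not overlap the host window. Snora81, an H/ACA snoRNA in the translation initiation gene Eif4a2, fell from 7.04 to 6.48 (-0.57, implied SE 0.204, FDR 0.0224); the Eif4a2 promoter changed by -0.38 (FDR 3.06e-05). Snord83b, in the ribosomal protein gene Rpl3, fell from 7.22 to 6.70 (-0.52, FDR 0.0424), while the Rpl3 promoter went from 10.66 by 0.05 (FDR 0.723). Snora28, in the initiation factor gene Eif5, was listed at 6.64 and 6.05 and did not pass (-0.59, FDR 0.122), and Snord16a, in Rpl4, at 5.58 and 6.20 (0.62, FDR 0.0777). The median implied SE was 0.144 for snoRNA windows and 0.082 for lncRNA windows.

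The snoRNA windows that rose were, by size, Snord87 (8.17 to 8.53, change 0.36, FDR 0.0337), LOC115488830 in Ddx39b, a helicase gene of messenger RNA export (11.25 to 11.55, change 0.31, FDR 0.02), and Snord104 (10.80 to 11.07, change 0.27, FDR 9.03e-04). Snora61 (0.26, FDR 0.0288) lies in Snhg12 and its window overlaps that of Snhg12. Snora78, in Rps2, and Snord58b, in Rpl17, were the others that rose, by 0.19 and 0.21. With Gas5 included, 9 of 39 were called.

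**Figure D4:**
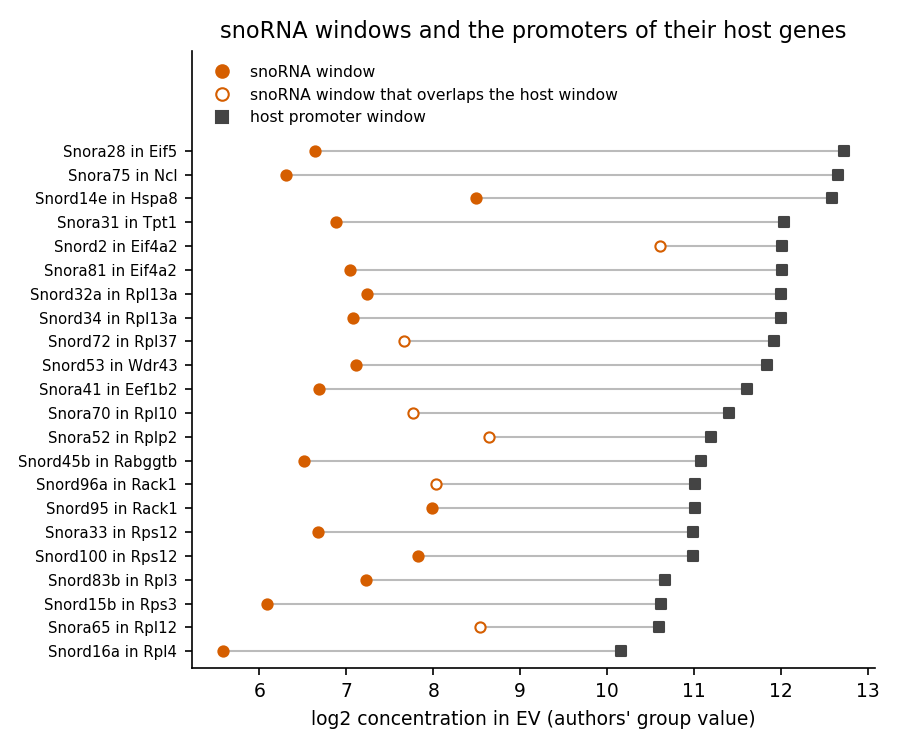
Log2 concentration in EV (x axis) of 22 snoRNA windows (circles, open where the window overlaps that of the host) and of the promoter window of the host gene (squares), 1 line per snoRNA, from the authors' deposited table. Every circle lies left of its square, with medians of 7.17 and 11.51. Windows with a protein-coding 5' end within 1 kb on their strand were not members and are not shown as circles.

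Of the miRNA windows, only that of Mir142 was called. Mir142 is a gene active across blood cells, whose RNA is among the most abundant miRNAs of hematopoietic cells. Its window (chromosome 11, 87755864 to 87757864) rose from 10.40 to 10.86 (0.46, implied SE 0.0838, FDR 8.22e-07). Per kb of window, 5 of the other 12 miRNA windows were more accessible in EV. The mature RNAs are printed with their seed (bases 2 to 8, which pair with targets) in capitals, from RefSeq.
mmu-miR-142a-5p: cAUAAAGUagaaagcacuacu
mmu-miR-142a-3p: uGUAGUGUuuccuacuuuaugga
The windows on the oncogenic miR-17 cluster and its relative did not pass. The Mir17hg window, at 6.80 in EV and 6.96 in Snai1, covers the 6 miRNA genes of the cluster, and Mir17 itself begins 719 bp before the start position, so the window is centred on the RNAs. The Mir25 window covers 3 (Mir25, Mir93 and Mir106b) in an intron of Mcm7, a replication helicase gene, at 7.40 in EV and 7.47 in Snai1 (0.08, FDR 0.764), against 11.34 at the Mcm7 promoter. The clusters are shown since their members share seeds.
mmu-miR-17-5p: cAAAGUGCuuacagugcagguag
mmu-miR-20a-5p: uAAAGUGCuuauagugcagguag
mmu-miR-93-5p: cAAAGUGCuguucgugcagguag
mmu-miR-106b-5p: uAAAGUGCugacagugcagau
mmu-miR-92a-3p: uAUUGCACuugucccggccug
mmu-miR-25-3p: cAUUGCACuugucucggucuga
The first 4 share the seed AAAGUGC and the last 2 the seed AUUGCAC. The window of Mir125a, which also covers Mir99b and Mirlet7e, RNAs known from blood stem cells, was at 6.65 and 6.40 (-0.25, FDR 0.368). The 12 uncalled miRNA windows had changes from -0.25 to 0.20.

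Pseudogene windows held the largest change of any member. Rnls (chromosome 19, 33392195 to 33393295), the renalase gene, which RefSeq lists as a transcribed pseudogene in this build, rose from 2.65 to 7.55 (4.90, implied SE 0.38, FDR 6.65e-36). The EV value is the lowest of all windows, and a fold against so low a level depends on how the authors scaled the counts, a step not given in the sources used here. Gm6682 rose from 6.20 to 6.90 (0.70, FDR 0.00629) and Gm6334, in Shcbp1, from 7.09 to 7.55 (0.45, FDR 0.0293).

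Mx2, an interferon-induced GTPase gene that is disrupted in common laboratory strains, was at 11.16 in EV and fell by 1.34 to 9.81 (implied SE 0.0821, FDR 2.36e-57; window at chromosome 16, 97535083 to 97537083). It was the most accessible of the pseudogene windows that changed by 0.5 or more. Ptma-ps2, a copy of the prothymosin gene, fell from 6.52 to 5.65 (-0.88, FDR 0.00624), and Gm19587 from 7.25 to 6.59 (-0.66, FDR 0.00253). H2-K2, a class I histocompatibility pseudogene, rose from 11.17 to 11.36 (0.20, FDR 0.0347), and the window of the gene H2-K1, 21542 bp away, changed by 2.01 (FDR 2.68e-55). Of the 28 transcribed pseudogenes 10 were called (5 higher, 5 lower), or 35.7%, beside 29.9% of all windows (19.6% higher, 10.3% lower). Of the other 22, 4 were called (2 higher, 2 lower), or 18.2%. The lowest decile by accessibility held 86.4% of these 22 and 25% of the transcribed ones, and the shares called were not tested against each other. Rnls, Hyi (0.27, FDR 0.00606), Thap6 and Mx2 are transcribed pseudogenes in this RefSeq build and may be listed as protein-coding elsewhere. Without these 4, 7 of 24 transcribed pseudogenes were called (3 higher, 4 lower), and their median in EV was 10.23 in place of 10.61. The ribosomal protein copies Rps12-ps24, Rps15a-ps5, Rpl13-ps6 and Rpl5-ps2 were not called (changes of 0.09, 0.30, 0.38 and -0.23). Reads from a pseudogene and its parent gene can be hard to place, so these values are uncertain; the treatment of such reads was not given in the sources used here.

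Among the 6 other windows, that of Rn7sk, the gene of the 7SK RNA that holds the elongation factor P-TEFb inactive, rose from 10.87 to 11.11 (0.24, FDR 0.00295). It was the one window among 6 listed structural RNA genes. It lies inside the window of the lncRNA gene C920006O11Rik, which rose by 0.25 (FDR 9.51e-04), so the pair shares reads. In all, 22 members overlapped another member, of which 8 were called, beside 29.9% of all windows called. In 2 pairs, this one and Snhg12 with Snora61, both windows were called. 4930451G09Rik, inside Anks3 on the other strand, rose from 11.86 to 12.20 (0.34, FDR 2.54e-04), and Slfn10-ps, listed as a miscellaneous RNA, fell from 8.65 to 8.32 (-0.33, FDR 0.0418). The windows of 2 tRNA genes, n-TTtgt2 (0.08) and n-TRtcg5 (0.15), and of Snord73b (0.32, FDR 0.162) were not called.

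Changes at members were set beside those of the surrounding windows. Among the 120 called members, the nearest non-overlapping protein-coding window was called in the same direction in 40 cases (33.3%), in the opposite direction in 10 (8.33%) and not called in 70 (58.3%). The shares for called protein-coding windows and their nearest neighbour were 34.5%, 5.1% and 60.4%. Chromosome 16 stood apart: 15 of its 19 members were called, 13 of them lower, and 82.4% of all its windows were called. Of the 44 members that fell, 13 lay on chromosome 16 and 6 on chromosome 1, with medians over all windows there of -0.35 and -0.15. Without chromosome 16, 105 of 381 members were called (27.6%; 74 higher, 31 lower), against 28.2% of all windows.

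To take out such shared shifts, a local median was subtracted from each change, and the result was tested again with the implied SE. The local median was the median change of the other windows within 5 Mb that were not members, overlapping partner windows included. Then 57 members were called, 23 higher and 34 lower (14.2%), beside a background of 13.9% called, 5.31% higher and 8.57% lower. Of the 120 calls in the authors' deposited table, 43 were called again in the same direction, 75 were not called, and 2 turned from lower to higher, A630089N07Rik and A930006K02Rik, both on chromosome 16 (0.22 and 0.25 after subtraction). A further 12 members were called only after it. With the median of all windows (0.08) subtracted instead, 80 members were called, 27 higher and 53 lower, beside a background of 21% called, 7.23% higher and 13.8% lower. The share of calls that were higher was thus 63.3% as deposited, 33.8% with the overall median subtracted and 40.4% with the local one, and in all windows 65.5%, 34.5% and 38.2%.

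The largest changes were called in the same direction relative to their surroundings. The local change (change minus local median) was 4.82 at Rnls, 1.50 at Gm5577, 1.29 at Gm14403, 1.17 at Gm11110, 0.93 at 2900079G21Rik, 0.83 at Rnf227 and 0.39 at Mir142. It was -2.45 at 9230112J17Rik, -0.91 at Bvht, -0.78 at C330018A13Rik and -0.77 at 2700046G09Rik. On chromosome 16, Dubr, with a local median of -0.90, kept -0.81 (re-test FDR 3.68e-10), Mx2 kept -0.60 (re-test FDR 2.1e-11) and 1700007L15Rik -0.28 (re-test FDR 0.00204). Lppos (-0.29), Zbtb11os1 (-0.12), Gm16892 (-0.08) and Snora81 (-0.28) were no longer called, nor was Gas5 (-0.15) on chromosome 1. Of the modest increases, Snhg12 (0.30), Lockd (0.27), Snord104 (0.26) and Cep83os (0.21) were still called, and Dleu2 (0.09), Jpx (0.11), Rn7sk (0.09), Snhg4 (0.17), 2610020C07Rik (0.07), Gm1976 (0.15), Snord87 (0.23), LOC115488830 (0.22), Gm6334 (0.39) and 4930451G09Rik (0.07) were not. With the median of all windows subtracted, Snhg4, Dleu2, Jpx, Rn7sk, Snord87, LOC115488830 and Gm6334 were not called either, with re-test FDR values from 0.0654 to 0.222. 4930412C18Rik, on chromosome 4 with a local median of 0.57, changed sign (-0.11, not called).

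**Figure D5:**
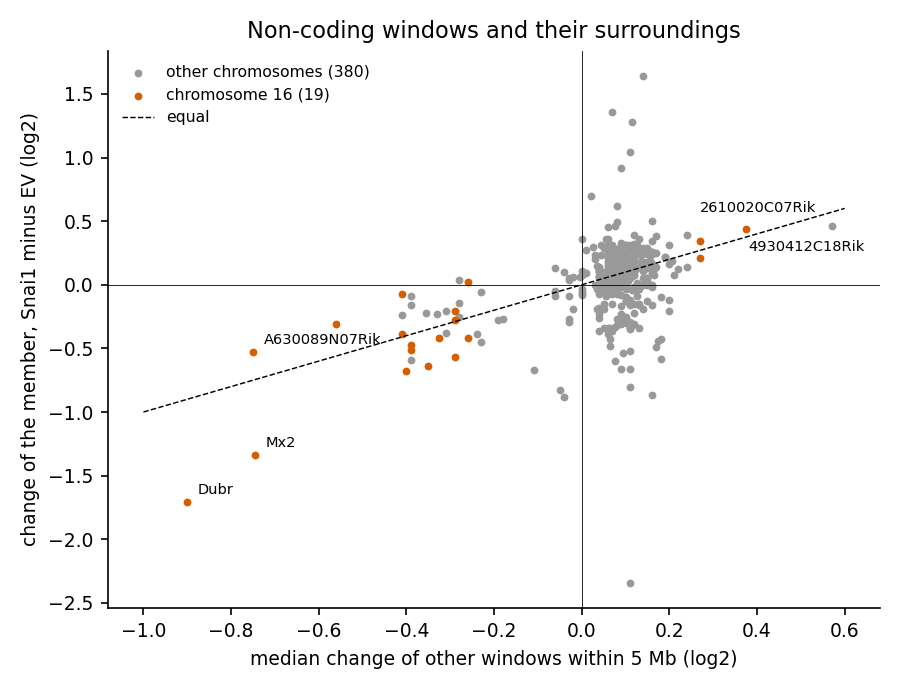
Change of each non-coding window (y axis, log2, Snai1 minus EV) against the median change of the windows within 5 Mb that were not members (x axis, log2). Chromosome 16 is in orange and other chromosomes are in grey, with the dashed line marking equal values. Rnls, at 4.90, is off the scale. Dubr and Mx2 lie below the line at local medians of -0.90 and -0.75, while most windows of chromosome 16 lie close to it.

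The members nearest to the limit of 1 kb were Mir1967 (832 bp, change -0.03), Gm51685 (844 bp, 0.14) and Gm12188 (992 bp, 0.26), none of them called. The windows just outside it were those of Gm29257 (1084 bp, -0.30, FDR 7.54e-04), Mir425 (1115 bp, 0.17, FDR 0.0615) and Gm23205 (1132 bp, 0.01, FDR 0.952). Of these, only Gm29257 was called. A RefSeq promoter entry of a protein-coding gene whose outer 5' end lies elsewhere fell within 1 kb on the strand at 13 members, mostly miRNA and snoRNA windows such as that of Snora78 at Rps2; without them 118 were called.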

How the data were processed

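ATAC-seq libraries of HPC7 cells with an empty vector, Snai1 or mut5Snai1 (3 per group, 9 in all, per the labels) were processed with fastp, Bowtie2, Picard and DiffBind on mm10, per the submitters' processing notes. For versions, settings, the Tn5 shift, peak calling, scaling and depth per library, details were not given in the sources used here. Group values only were at hand: the authors deposited log2 concentrations per group, their log2 fold (EV minus Snai1, sign turned here) and, per the file headers, a p-value and FDR per promoter window. Of 10274 table lines, 3 exact duplicates were removed. Per-sample value columns numbered 0, so the calls rest on the authors' FDR (threshold 0.05).

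Windows of 2001 bp (plus strand) and 1101 bp (minus strand) begin 1000 bp before a start on the plus strand and 100 bp past it, in genome order, on the minus strand. RefSeq genes (GRCm38.p6; 49997, strand at hand for 28097) were matched to these starts. The implied SE is the size of the change over the normal quantile for its p; where the change was under 0.1 or p was 0, the median SE of windows of like accessibility (20 bins) stood in. Re-tests used it with Benjamini-Hochberg adjustment over all windows (Python 3.11.15, SciPy 1.17.1) and were run on simulated data. The simulated noise was drawn with the implied SE itself, and the shift was flat on chromosome 16 and flat elsewhere. That run could therefore not check the implied SE or gradients along a chromosome. Re-tests took the local median as free of error, though it rested on as few as 1 window (median of 52 for members).

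Named genes were the 8 largest called increases and decreases among lncRNA windows, the 3 largest of each other type, from each of 6 lists up to 4 called genes of lowest FDR, the 5 back-to-back pairs with the smallest FDR, and Malat1, Neat1, Xist, Gas5, Pvt1, Mir17hg and Dleu2. Others are named as neighbours, as uncalled list members or for comparison and were chosen with their values seen. The members and lists were chosen with earlier results of these data known.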

Additional observations from a re-analysis of the deposited data

How the results depend on the processing

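At an FDR of 0.01 the windows called higher numbered 46, the snoRNA windows called 2 and the pseudogene windows called 8. With the median of all windows subtracted, 27 were called higher and 5 snoRNA windows were called. With the local median within 5 Mb subtracted, 57 were called, 23 of them higher: 44 lncRNA, 2 snoRNA, 9 pseudogene and 1 other window, and 4930412C18Rik changed sign to -0.11. Leaving out windows with a protein-coding 5' end on either strand gave 78 called, 26 of them lower, since fewer windows (271) entered. On the other strand only genes with a strand at hand counted. The other totals (called, higher and lower) kept within 1.5 times the values as deposited, and the median change within the median implied SE, when a non-coding 5' end within 100 bp was required, and when the lowest decile by accessibility, windows at another protein-coding start or chromosome 16 were left out; the last 2 were chosen after seeing the data. Counts per type were not run under these settings, except that without Rnls, Hyi, Thap6 and Mx2, also chosen after seeing the data, 11 pseudogene windows were called. Of 45 named windows 41 were called; 34 of these kept their call with the overall median subtracted and 25 with the local one. No paired analysis was possible because the table holds 1 value per group, and for the same reason no library could be left out in turn. The depth is unknown; precision was lowest in the lowest decile, where the median implied SE of members was 0.188.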
